A study of Mus musculus with 2 samples.

Results

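Transcripts of the hypothalamic melanocortin system were followed in mouse hypothalamus under bezafibrate, a lipid-lowering fibrate and agonist of the nuclear receptors called PPARs. The group holds 10 genes: the peptide genes Agrp, Pomc and Cartpt, the receptors Mc3r and Mc4r, and the peptide-processing and peptide-degrading enzymes Pcsk1, Pcsk2, Cpe, Pam and Prcp. They are 10 of 21457 named genes and 18 of 41174 probes on the array. Of the 18 probes, 17 were matched to their gene by the accession in the files, among them the 2 Cartpt probes (NM_013732), which carry no usual symbol there, and 1 Pam probe by its symbol. The group was chosen by the signals of Agrp and Pomc on these same arrays, so the ratios below describe 4 pools and are not tested.

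Melanocortin signalling controls feeding and energy use. Neurons of the arcuate nucleus make proopiomelanocortin, which enzymes cut into α-MSH, a peptide that lowers food intake through MC3R and MC4R on downstream neurons. A neighbouring population makes agouti-related peptide together with neuropeptide Y, and agouti-related peptide opposes α-MSH at these receptors, so fasting is known to raise Agrp and to lower Pomc.

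The study set bezafibrate-treated mice beside control mice, and its stated subject is the effect of PPARα activation on hypothalamic gene expression. Brains were taken at ZT10 and at ZT22, hours counted from lights on, and a square block that contained the hypothalamus was cut out. Equal amounts of RNA from 4 mice were mixed for each diet and time, which gave 4 pools: control ZT10, bezafibrate ZT10, control ZT22 and bezafibrate ZT22. Each pool was hybridised to 1 one-colour (Cy3) whole-genome oligonucleotide array. Mice were 8 weeks old at the start, by the labels. The feeding of the control mice is not set out here. For the bezafibrate mice the labels give 2 weeks of normal feed, then 2 weeks of feed holding 0.5% bezafibrate, then 5 more weeks of normal feed. At which stage of this schedule the brains were taken, and the strain, are not given in the sources used here.

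The 4 arrays lay on 1 slide, at position 1 for control ZT22, 2 for control ZT10, 3 for bezafibrate ZT22 and 4 for bezafibrate ZT10, so diet and side of the slide cannot be told apart. Between 68.7% and 74.6% of features were well above background, and the 75th percentile of the signal lay between 893 and 1050 intensity units. Signals are given after scaling that percentile to 1000 on every array. All 18 probes were well above background on all 4 arrays, with 1 spot each. The value after ± is the scanner error of a log2 ratio, propagated from the error that the extraction software gives each signal. It covers the spots alone, not the spread between mice or pools, which 1 array per group cannot show. In tissue RNA, fewer cells of a type and less RNA per cell cannot be told apart. Probes differ in how well they hybridise, so the signals of different probes are not set against each other.

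Agrp, the antagonist of the melanocortin receptors, was higher in both bezafibrate pools. At ZT10 its probe gave a scaled signal of 633 with control feed and 1250 with bezafibrate. At ZT22 it gave 472 with control feed and 1510 with bezafibrate. Both bezafibrate pools therefore lay above both control pools, and the order from high to low was bezafibrate ZT22, bezafibrate ZT10, control ZT10 and control ZT22. The bezafibrate signal was 1.97-fold higher at ZT10 (log2 ratio 0.98 ± 0.20) and 3.20-fold higher at ZT22 (1.68 ± 0.20). The step from the upper control pool to the lower bezafibrate pool (633 to 1250) was larger than either step within a diet, which were 0.42 and 0.28 in size on the log2 scale. Among 15882 genes above background on all 4 arrays, Agrp had the 36th highest diet ratio at ZT10 and the 10th highest at ZT22. In the authors' deposited table the Agrp ratio of bezafibrate over control was 1.859 at ZT10 and 3.036 at ZT22.

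Pomc, the precursor of α-MSH and, in the pituitary, of ACTH, was lower in both bezafibrate pools. Its probe gave 15500 in the control and 7030 in the bezafibrate pool at ZT10, and 15700 and 11000 at ZT22. The control pools differed by 1.01-fold between times, and the bezafibrate pool at ZT10 was the lowest of the 4. The bezafibrate signal was 2.21-fold lower at ZT10 (log2 ratio -1.15 ± 0.20), the 33rd lowest of the 15882 genes, and 1.43-fold lower at ZT22 (-0.52 ± 0.20), the 343rd lowest. In the authors' deposited table the Pomc ratio was 0.426 at ZT10 and 0.666 at ZT22.

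**Figure D1:**
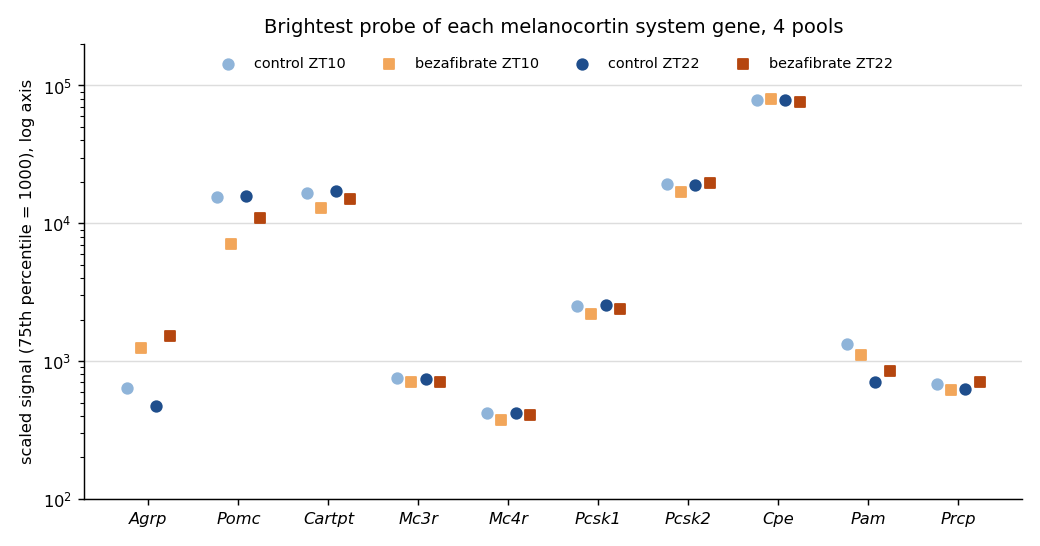
Scaled signal of the brightest probe of each of the 10 genes in the 4 pools, on a log axis; circles are control pools and squares bezafibrate pools, and each point is 1 array with no replicate. Agrp is higher (1250 and 1510 against 633 and 472) and Pomc lower (7030 and 11000 against 15500 and 15700) in the bezafibrate pools, while the Cpe points nearly coincide.

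Agrp relative to Pomc within an array does not depend on how the arrays are scaled. This within-array quantity was 4.36-fold higher with bezafibrate at ZT10 (difference of log2 ratios 2.13 ± 0.29) and 4.57-fold higher at ZT22 (2.19 ± 0.29). The values at the 2 times thus differed by less than the scanner error, although the part taken by each gene differed: at ZT10 the Pomc and Agrp ratios were of similar size (-1.15 and 0.98), and at ZT22 the Agrp ratio was the larger (1.68 against -0.52). From ZT10 to ZT22 the same quantity fell by 0.44 ± 0.29 on the log2 scale (1.36-fold) in control mice, and by 0.37 ± 0.29 (1.29-fold) in bezafibrate mice.

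Cartpt encodes CART, a satiety peptide that many Pomc neurons of the arcuate nucleus also make, along with other hypothalamic neurons. Its brighter probe gave 16600 in the control and 13000 in the bezafibrate pool at ZT10, and 17200 and 15100 at ZT22. The second probe gave 14400 and 10300 at ZT10, and 12700 and 12500 at ZT22. Both probes were lowest in the bezafibrate pool at ZT10, the pool where Pomc was lowest too. That pool was also the lowest for Mc4r, both Pcsk1 probes, both Pcsk2 probes and the brighter Prcp probe. The diet log2 ratio at ZT10 was -0.36 ± 0.20 and -0.48 ± 0.20 for the 2 probes, beyond the scanner error but short of 1.5-fold. At ZT22 the ratios were -0.19 ± 0.20 and -0.02 ± 0.20, within the scanner error.

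The promoters of Pomc, Cartpt and Pcsk1, the convertase that makes the first cuts in proopiomelanocortin, are shown for the factor motifs they hold. They come from RefSeq (GRCm38.p6), whose table had 7 of the 10 genes. Agrp, Mc4r and Cpe had no entry. Each is the 250 bases before the start of the gene, read along its own strand, with motif matches in capitals.
Pomc, chr12:3954695-3954944, plus strand: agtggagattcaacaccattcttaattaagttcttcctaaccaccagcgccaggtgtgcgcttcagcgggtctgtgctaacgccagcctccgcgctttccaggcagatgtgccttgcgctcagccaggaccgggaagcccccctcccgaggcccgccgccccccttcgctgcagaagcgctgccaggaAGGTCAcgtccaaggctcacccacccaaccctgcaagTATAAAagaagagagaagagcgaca
Cartpt, chr13:99900684-99900933, minus strand: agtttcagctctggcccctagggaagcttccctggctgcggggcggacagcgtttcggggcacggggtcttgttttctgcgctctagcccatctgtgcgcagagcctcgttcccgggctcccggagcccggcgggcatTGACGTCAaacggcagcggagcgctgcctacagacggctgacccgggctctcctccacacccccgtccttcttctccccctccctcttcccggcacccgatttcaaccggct
Pcsk1, chr13:75089607-75089856, plus strand: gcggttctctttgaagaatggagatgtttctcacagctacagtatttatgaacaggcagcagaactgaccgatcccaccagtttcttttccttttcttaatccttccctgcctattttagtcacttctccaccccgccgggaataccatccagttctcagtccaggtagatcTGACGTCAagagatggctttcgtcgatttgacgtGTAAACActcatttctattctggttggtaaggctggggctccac
In Pomc the capitals mark AGGTCA, the nuclear receptor half-site, at -62 to -57 from the gene start and the TATA box TATAAA at -25 to -20. In Cartpt they mark the cyclic AMP response element TGACGTCA at -112 to -105. Pcsk1 holds the same element at -78 to -71 and the forkhead motif GTAAACA at -44 to -38.

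Of the 32536 promoters of this length in the table, searched on both strands, 1.56% held TGACGTCA, 3.17% GTAAACA, 14% AGGTCA and 12.3% TATAAA. The PPAR response element, 2 copies of AGGTCA with 1 base between, which also counts as a half-site match, was in 0.0338% of them and in none of the windows of the 7 genes. The STAT motif TTCNNNGAA, in 7.04%, and the E-box CACGTG, in 6.04%, had no match there either. Of the other genes, Prcp held 1 half-site on the opposite strand, and Mc3r, Pam and Pcsk2 held none of the 7 motifs. A match is a run of letters and was not tested as a binding site.

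The receptors showed small differences. For Mc3r, a receptor for α-MSH that arcuate neurons themselves carry, the brighter probe gave 750, 710, 746 and 707 in the control ZT10, bezafibrate ZT10, control ZT22 and bezafibrate ZT22 pools. That is a 1.06-fold range over all 4 arrays, with a diet log2 ratio of -0.08 ± 0.20 at both times. The dim second probe gave 66.5, 64.7, 55.5 and 58.9 in the same order. For Mc4r, the receptor whose loss causes obesity, the signals were 422, 376, 418 and 403, and the diet log2 ratios were -0.17 ± 0.20 at ZT10 and -0.05 ± 0.20 at ZT22. No receptor ratio between diets passed the scanner error, which does not show that the receptors were alike in the animals.

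The convertases cut proopiomelanocortin in turn: PCSK1 releases ACTH and PCSK2 cuts further towards α-MSH. The brighter Pcsk1 probe gave 2500 in the control and 2210 in the bezafibrate pool at ZT10, and 2570 and 2370 at ZT22, with log2 ratios of -0.18 ± 0.20 and -0.12 ± 0.20. The second Pcsk1 probe, at 97.1 to 121 units, had ratios of -0.31 ± 0.21 and -0.22 ± 0.21. Both Pcsk1 probes were therefore lower with bezafibrate at both times, by 1.24-fold at most. The brighter Pcsk2 probe gave 19300 and 17000 at ZT10 and 19000 and 19600 at ZT22. Its diet ratios were -0.18 ± 0.20 and 0.04 ± 0.20, and those of the second probe were -0.12 ± 0.20 and 0.12 ± 0.20.

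Carboxypeptidase E, the product of Cpe, trims the basic residues that the convertases leave. Its brighter probe gave 78000, 79600, 78400 and 75800 in the control ZT10, bezafibrate ZT10, control ZT22 and bezafibrate ZT22 pools, a 1.05-fold range. The second Cpe probe spanned 1.08-fold. PRCP, a peptidase that inactivates α-MSH by removing its last residue, was measured by a bright probe at 685, 622, 624 and 702 in the same order. The diet log2 ratios of this Prcp probe were -0.14 ± 0.20 at ZT10 and 0.17 ± 0.20 at ZT22, both within the scanner error. The dimmer second Prcp probe gave 90.3, 89.4, 75.7 and 80.1, with diet ratios of -0.01 ± 0.21 and 0.08 ± 0.215. Its log2 ratios of ZT22 over ZT10 were -0.25 ± 0.21 in control and -0.16 ± 0.21 in bezafibrate mice. Those of the brighter probe were -0.14 ± 0.20 and 0.175 ± 0.20, so the probes disagreed in bezafibrate mice.

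Pam encodes the enzyme that amidates the end of α-MSH and of many other neuropeptides, and its 3 probes disagreed. The brightest gave 1330 in the control and 1110 in the bezafibrate pool at ZT10, and 711 and 849 at ZT22. The second gave 646, 737, 734 and 636 in the same order, and the third, dim and taken from the clone AK053025, gave 45.8, 42.1, 36.5 and 47.4. The diet log2 ratios of the brightest probe were -0.25 ± 0.20 at ZT10 and 0.26 ± 0.20 at ZT22, and those of the second had the opposite signs (0.19 ± 0.20 and -0.21 ± 0.20). Those of the third were -0.12 ± 0.23 and 0.38 ± 0.24, with the signs of the brightest. The SD between the 3 probes was 0.23 at ZT10 and 0.31 at ZT22, against a median SD of 0.08 and 0.09 over all genes with several probes. No direction for Pam transcripts as a whole is therefore given.

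**Figure D2:**
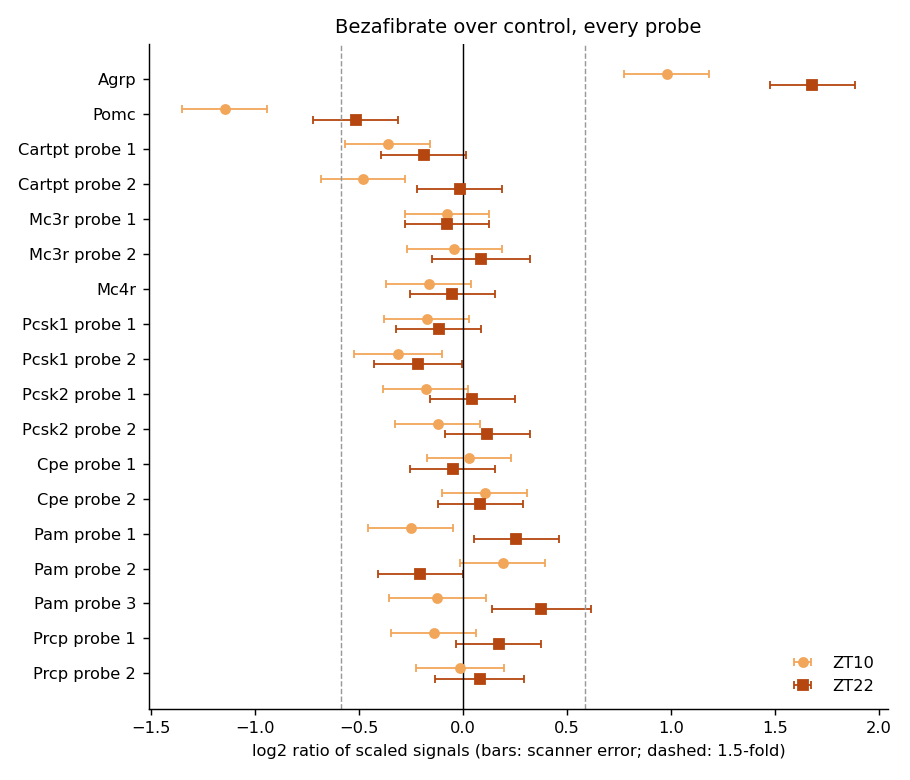
Log2 ratio of bezafibrate over control for all 18 probes at ZT10 (circles) and ZT22 (squares); bars are the scanner error and dashed lines 1.5-fold. Agrp lies at 0.98 and 1.68 and Pomc at -1.15 and -0.52, whereas no probe of the other 8 genes is beyond 0.48 in size.

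Counted by the brightest probe, 2 of the 10 genes were at least 1.5-fold apart between diets at ZT10 (Agrp and Pomc), where 3.87% of 17277 genes were. At ZT22 it was 1 of 10 (Agrp), where 5.55% of 16930 genes were. Among the 15882 genes above background on all 4 arrays, as the members were, the shares were 2.19% at ZT10 and 2.83% at ZT22. These contrasts were used in choosing the group, so nothing is read from the counts. Across the 16 probes of the other 8 genes the largest diet ratio was 1.40-fold, that of the second Cartpt probe at ZT10. At ZT10, 8 of the 10 genes were lower in the bezafibrate pool, with a median log2 ratio of -0.17 beside 0.01 over all genes. These 8 include Pam, whose probes disagreed, and Mc3r, Mc4r, Pcsk1, Pcsk2 and Prcp, whose ratios were within the scanner error. At ZT22, 6 of 10 were lower, all but Pomc within the scanner error, and the median was -0.05 beside 0.01. Of all 15882 genes above background on all 4 arrays, 7534 were lower at ZT10 and 7548 at ZT22. The member counts include Agrp and Pomc, whose signals were used in choosing the group. Of the 7 genes with several probes, the probes had the same sign in 6 at ZT10 (Pam excepted) and in 4 at ZT22 (Mc3r, Cpe and Pam excepted).

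The time comparisons called 1 member each, too few to set apart from the share over all genes. In control mice 1 of 10 genes (Pam, by its brightest probe alone) was at least 1.5-fold apart between ZT22 and ZT10, where 6.51% of 17382 genes were. In bezafibrate mice it was 1 of 10 (Pomc), where 5.48% of 16741 genes were. Among the 15882 genes above background on all 4 arrays, as the members were, the shares were 3.71% in control and 3.43% in bezafibrate mice. At ZT22 the Pam probe was 1.87-fold lower with control feed (-0.90 ± 0.20) and 1.31-fold lower with bezafibrate (-0.39 ± 0.20), while its second probe had log2 ratios of 0.19 ± 0.20 and -0.21 ± 0.20. Pomc was 1.57-fold higher at ZT22 in bezafibrate mice (0.65 ± 0.20) and 1.01-fold higher in control mice (0.02 ± 0.20). For Agrp the ZT22 signal was 1.34-fold lower than at ZT10 in control mice (-0.42 ± 0.20), and 1.21-fold higher in bezafibrate mice (0.28 ± 0.20).

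The diet ratio of Pomc at ZT22 minus that at ZT10 was 0.63 ± 0.29, and that of Agrp was 0.70 ± 0.29. Pomc was thus less far below control at ZT22, and Agrp further above it. Whether these diet ratios differ between times could not be tested with 1 pool per group. By brightest probe, the time ratios of the members other than Agrp, Pomc and Pam lay between -0.14 (Prcp) and 0.05 (Cartpt) in control mice and between -0.07 (Cpe) and 0.22 (Cartpt) in bezafibrate mice.

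**Figure D3:**
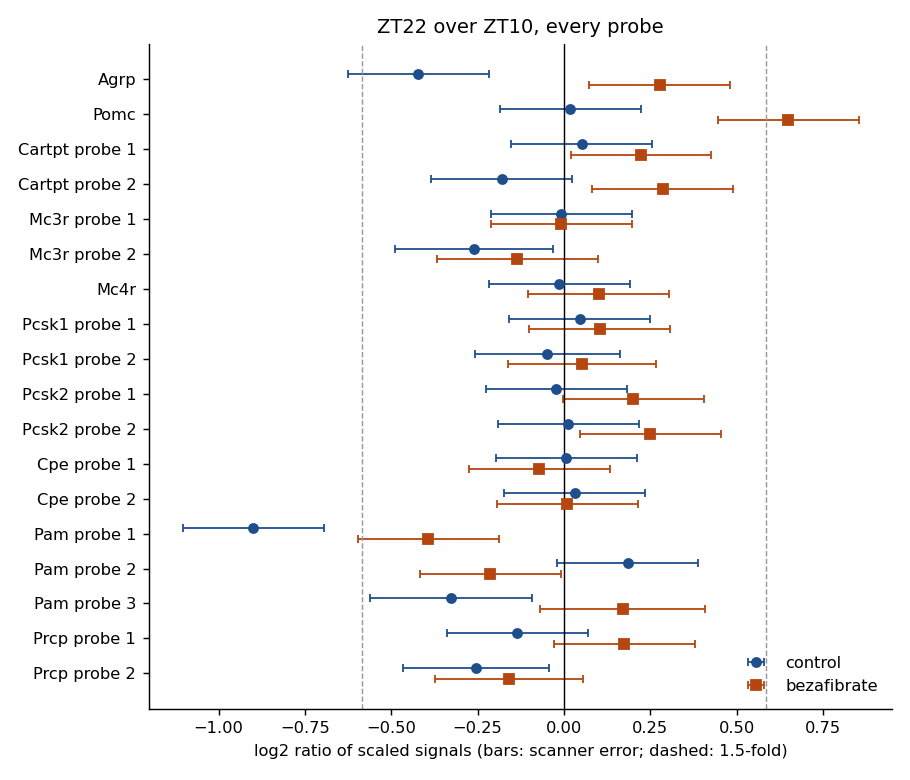
Log2 ratio of ZT22 over ZT10 for all 18 probes in control mice (circles) and bezafibrate mice (squares); bars are the scanner error and dashed lines 1.5-fold. The brightest Pam probe in control mice (-0.90) and Pomc in bezafibrate mice (0.65) are the points beyond 1.5-fold, and the Pam probes lie on both sides of 0.

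The other genes of the pathway were read from lists that hold the 10 genes too. Of 14 genes for receptors, accessory proteins and signal coupling, 10 were above background on all 4 arrays, and 0 of them were 1.5-fold apart in any of the 4 comparisons. Over all 15882 genes above background on all 4 arrays, the shares were 2.19% and 2.83% between diets at ZT10 and ZT22 and 3.71% and 3.43% over time in control and bezafibrate mice, so a count of 0 of 10 is near the background. Their median log2 diet ratio was -0.06 at ZT10 and -0.06 at ZT22. The list includes Mgrn1 and Atrn, which act in agouti signalling, and Gnas, the stimulatory G protein subunit that couples the receptors. Mc5r and Asip, the agouti peptide of skin, were not well above background on any array, and Mrap2 is not analysed here.

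Of 21 genes for prohormone processing and secretory granules, 20 were above background on all 4 arrays. 0 of the 20 were 1.5-fold apart between diets at either time, again near the background of 2.19% and 2.83%, with median log2 ratios of -0.05 and 0.02. The lowest and highest were -0.25 (Pam) and 0.09 (Qpct) at ZT10 and -0.28 (Cpd, a second carboxypeptidase) and 0.26 (Pam) at ZT22. Pcsk1n, the inhibitor of PCSK1, had ratios of 0.05 ± 0.20 and 0.08 ± 0.20, and Scg5, the chaperone of PCSK2, -0.15 ± 0.20 and -0.02 ± 0.20. Of 17 genes for hormone input and transcription factors of melanocortin neurons, 14 were above background on all 4 arrays. With bezafibrate, 9 of the 14 were higher at each time, beside 52.5% of all genes above background on all 4 arrays. The median ratios were 0.02 and 0.06.

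Among those 14, the ghrelin receptor Ghsr alone passed 1.5-fold in any comparison. Its brighter probe gave 37.1 in the control and 35.6 in the bezafibrate pool at ZT10, and 187 and 78.6 at ZT22. At ZT22 it was 2.38-fold lower with bezafibrate (-1.25 ± 0.21), but the second probe had a log2 ratio of 0.35 there, so the probes disagreed. Sim1, a factor of the Mc4r-bearing paraventricular neurons, gave 122, 108, 138 and 130 in the control ZT10, bezafibrate ZT10, control ZT22 and bezafibrate ZT22 pools. The leptin receptor probe used for Lepr was well above background on 1 array, and gave no ratio at ZT22. Foxo1 and Stat3, which act on Agrp and Pomc transcription, had diet log2 ratios of 0.14 ± 0.20 and -0.10 ± 0.20 at ZT10 and of 0.07 ± 0.20 and -0.01 ± 0.20 at ZT22.

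The gene whose 4 levels were most like those of Agrp was Npy, the peptide gene that Agrp neurons also express. Likeness was the Euclidean distance between log2 levels over the 4 arrays, each gene centred on its own mean, among 12304 genes above background on all 4 arrays with a mean scaled signal of at least 100. Members, clones and numbered loci were left out of the ranking. Npy gave 1500 in the control and 2460 in the bezafibrate pool at ZT10, and 1240 and 2960 at ZT22, so both bezafibrate pools were above both control pools. Its diet log2 ratios were 0.72 ± 0.20 and 1.26 ± 0.20. The distance of Npy from Agrp was 0.36, against 1.38 for a gene with no change over the arrays. Amy2 (0.57), Ano2 (0.71), Trim55 (0.73) and Crym (0.75) came next.

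For Pomc the 5 nearest were Tgtp1 (distance 0.32), Avp (0.36), Mfap4 (0.37), Rbm45 (0.38) and Akr1e1 (0.38), against 0.95 for a gene with no change. Avp, the vasopressin gene of magnocellular and suprachiasmatic neurons, gave 60100 in the control and 37700 in the bezafibrate pool at ZT10, and 69700 and 55700 at ZT22. Like Pomc, it was lowest in the bezafibrate pool at ZT10 and its control pools were the 2 highest. With 4 arrays a distance orders the genes and no more, and no p is given for it.

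**Figure D4:**
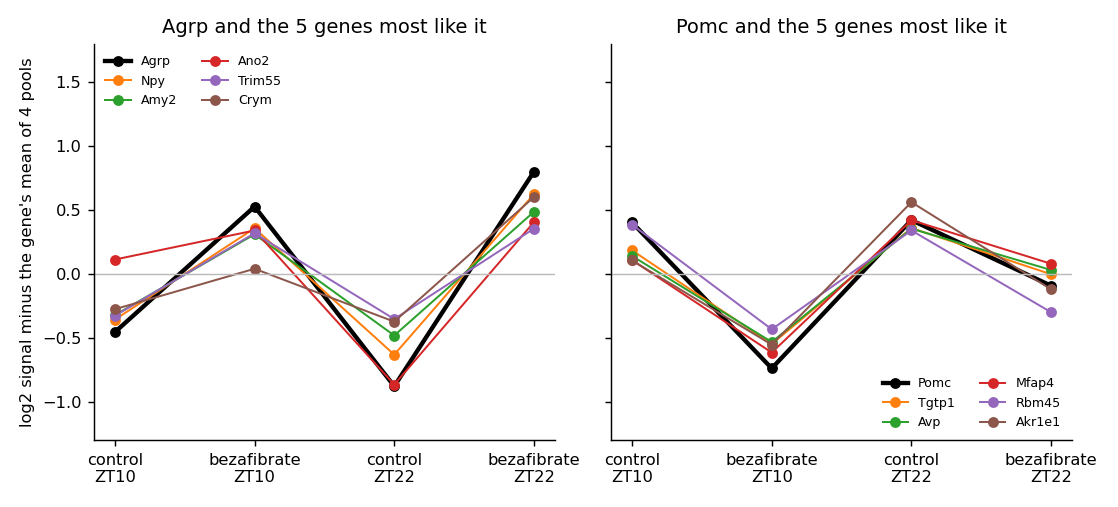
Log2 signal of Agrp (left) and Pomc (right) in the 4 pools, each gene minus its own mean, with the 5 genes nearest to each; lines only join the points of a gene. Npy runs closest to Agrp (distance 0.36), and both are high in the bezafibrate pools, where Pomc is low.

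Markers of the arcuate nucleus did not all follow. Of 11 such genes besides the members, all above background on all 4 arrays, 2 were higher with bezafibrate at ZT10 (Npy and Slc6a3), with a median log2 ratio of -0.14, and 7 were higher at ZT22, with a median of 0.08. Over all genes above background on all 4 arrays, 52.5% were higher at each time. Slc6a3, the dopamine transporter, gave 612 and 1000 at ZT10 and 654 and 691 at ZT22. Between diets, 2 of the 11 were 1.5-fold apart at ZT10 (Npy and Slc6a3) and 1 at ZT22 (Npy), beside 2.19% and 2.83% of all genes above background on all 4 arrays.

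Pituitary tissue makes Pomc too, and its transcripts moved between the pools. Prolactin (Prl) gave 376 in the control and 16.9 in the bezafibrate pool at ZT10, and 58.6 in the control pool at ZT22, where the bezafibrate pool was not well above background. Growth hormone (Gh) gave 199, 15.1 and 63.3 and was not well above background in the same pool. Prl was 22.3-fold lower with bezafibrate at ZT10 (-4.48 ± 0.33) and at least 5.47-fold lower at ZT22. Gh was 13.1-fold lower (-3.72 ± 0.33) and at least 5.90-fold lower. Between diets, Prl and Gh thus ran in the direction of Pomc at both times. Over time they did not. From ZT10 to ZT22 in control mice, Prl was 6.42-fold and Gh 3.15-fold lower, whereas Pomc was 1.01-fold higher. In bezafibrate mice Prl was at least 1.57-fold and Gh at least 1.41-fold lower, whereas Pomc was 1.57-fold higher.

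Other pituitary markers were mixed. Of the 17 pituitary genes, 11 were above background on all 4 arrays. Of those 11, 3 were lower with bezafibrate at both times, as Pomc was (Fshb, Ghrhr and Pax7), and 5 were lower at ZT10 and higher at ZT22. Pax7, a factor of the intermediate lobe, gave 25.0 in the control and 23.1 in the bezafibrate pool at ZT10, and 28.1 and 18.1 at ZT22. Its log2 ratios were -0.11 ± 0.36 and -0.63 ± 0.39. Fshb gave 33.7 and 19.3 at ZT10, and 29.0 and 27.7 at ZT22. Cga, the shared subunit of the glycoprotein hormones, gave 3970 and 2450 at ZT10 and 3450 and 4650 at ZT22, lower with bezafibrate at ZT10 and higher at ZT22, when Pomc was lower. Over the 11 genes, 8 were lower with bezafibrate at ZT10, with a median log2 ratio of -0.22. At ZT22, 5 were lower and the median was 0.07. Of all 15882 genes above background on all 4 arrays, 7534 were lower at ZT10 and 7548 at ZT22. The summed signal of the 17 pituitary genes was 6310, 4160, 5360 and 6840 in the control ZT10, bezafibrate ZT10, control ZT22 and bezafibrate ZT22 pools. In these, 14, 13, 14 and 11 genes were well above background. Cga made up most of each sum, which adds different probes and is no measure of pituitary content. Tbx19, the factor that defines pituitary Pomc cells, was well above background in the control ZT10 pool alone, at 13.9. That array also had the lowest limit. Its lowest unscaled signal well above background was 8.1, against 13.6, 12 and 9.57 for bezafibrate ZT10, control ZT22 and bezafibrate ZT22. With bezafibrate at ZT10, Tbx19 was therefore only bounded as at least 1.07-fold lower, and it gave no diet ratio at ZT22. The brighter of 2 Tshb probes gave 224, 181, 216 and 551 in the same pool order, but the second had a diet log2 ratio of -0.09 at ZT22. Pou1f1, which defines the Prl and Gh cells, and Gnrhr were not well above background on any array. The part of pituitary RNA in the Pomc ratios was not tested.

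**Figure D5:**
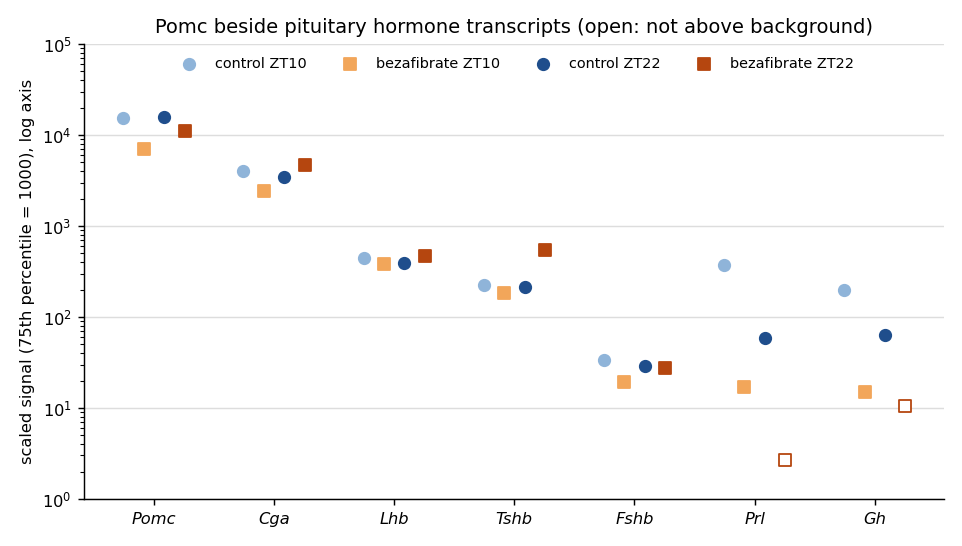
Scaled signal of Pomc and of 6 pituitary hormone transcripts in the 4 pools on a log axis; circles are control and squares bezafibrate pools, and open points are not well above background. Prl and Gh are lower in both bezafibrate pools, as is Pomc, whereas Cga and the brighter Tshb probe are highest in the bezafibrate ZT22 pool (4650 and 551). Lhb is highest there too, by little (465 against 446 in the control ZT10 pool).

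The block of tissue also differed in neighbouring regions. Of 15 hypothalamus markers with a probe, 14 were above background on all 4 arrays, with median log2 diet ratios of -0.12 at ZT10 and 0.04 at ZT22. At ZT10 the medians were -0.07 for choroid plexus, -0.05 for striatum, -0.20 for thalamus, -0.11 for cortex and hippocampus and -0.04 for myelin. All 9 thalamus genes were lower at ZT10, 3 of them 1.5-fold apart, the furthest being Tnnt1 (854 in the control and 399 in the bezafibrate pool, log2 ratio -1.10 ± 0.20). Of all 15882 genes above background on all 4 arrays, 7534 were lower at ZT10 and 2.19% were 1.5-fold apart. The cortical factor Neurod2 gave 536 and 183 at ZT10 by its brighter probe (-1.55 ± 0.21), with -0.50 for the second, and the cortical glutamate transporter Slc17a7 gave 70.8 and 26.3 (-1.43 ± 0.26). Tnnt1 was thus lower by about as much as Pomc at ZT10 (-1.15), and Slc17a7 and the brighter Neurod2 probe by more. At ZT22 the list medians were 0.89, 0.47, -0.15, -0.10 and -0.32 in the order above. There the choroid plexus gene Ttr was 13.6-fold higher with bezafibrate (109 against 1480) and Kcne2 5.88-fold higher (52.2 against 307). Their part in the Agrp and Pomc ratios was not tested.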

How the data were processed

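With 1 array per group, no test was run. Per the file headers, the authors extracted the arrays with Feature Extraction 9.5.1.1, and the deposited processed signal is a background-subtracted intensity, not normalised between arrays. The authors' deposited table holds, per the labels, the ratio of bezafibrate over control. It correlated with the ratios of the array files at r = 0.9964 and 0.9949 across features, and was used as an alternative. Its column medians, -0.079 and -0.062 (log2), were subtracted for that use. The scaling of the deposited table is not given in the sources used here.

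Signals were taken to log2, and each array's 75th percentile over non-control features was scaled to 1000 (Python 3.11.15, numpy 2.4.6, pandas 2.3.3). Outlier spots were left out, and a gene stood by its brightest probe. Of 41174 probes, 22944 were named by accession, 5855 by symbol and 3943 by older symbol through RefSeq (GRCm38.p6), 2170 kept the file's name and 6262 had none. A gene entered a comparison when well above background on at least 1 of its 2 arrays, and a dim side was set to its limit, which gives "at least". Named were all members, list genes 1.5-fold apart in any comparison and fixed genes, and the 5 genes most like Agrp and Pomc. Further genes named were picked with their values in view. Members and the 12 lists were chosen with earlier results of these data known. Counting was tested on simulated data. Alternatives used limma 3.58.1 for quantile normalisation and normexp.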

Additional observations from a re-analysis of the deposited data

Results flagged for a closer look

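The diet log2 ratio of the brightest Pam probe was below 0 at ZT10 and above 0 at ZT22, each beyond its scanner error, and the ZT22 value minus the ZT10 value was 0.508. The third Pam probe changed the same way (0.498 ± 0.333), and the second the opposite way (-0.397 ± 0.289). The log2 ratio of ZT22 over ZT10 of Agrp was below 0 in control mice and above 0 in bezafibrate mice, and the bezafibrate value minus the control value was 0.699. Both differences rest on 4 arrays and were not tested.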

How the results depend on the processing

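No paired analysis was possible because the groups share fewer than 2 replicate numbers, each having 1 array, and no array was left out. A fit of diet and time as added effects over the 4 arrays, which leaves 1 residual degree of freedom, was not run here. Other scalings, normexp background correction, the mean of a gene's probes and the authors' deposited table were the alternatives. Each column of that table was first centred on its median. Across these alternatives, 218 of 220 member ratios stayed within the error of the main value. Part of this agreement was fixed in advance. The mean of probes cannot change the 3 genes with 1 probe. The deposited table holds the same spots, and 99.6% of its log2 ratios lay within 0.05 of the array ratios after a constant offset. The 2 member ratios that moved further were Pam over time with the mean of its probes, at -0.35 in control and -0.15 in bezafibrate mice. The Agrp diet ratio ranged from 0.90 to 1.01 at ZT10 and from 1.495 to 1.69 at ZT22, and that of Pomc from -1.18 to -1.12 and from -0.54 to -0.50. Ratios quoted further up from the authors' deposited table are as deposited, not centred, and can lie outside these ranges. Counts of members past the threshold were within 1.5 times in 26 of 30 cases. With a fold of 2, the count was 1 in place of 2 between diets at ZT10, and 0 in place of 1 over time in control mice and in bezafibrate mice. With the mean of probes it was 0 over time in control mice. Of 144 medians of lists, 10 moved by more than their main error or spread, among them the pituitary list at ZT10 (-0.11 with normexp). The number of arrays limits the precision, and probes under 100 units lie nearer to background.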

Other observations

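Transcription factors that mark hypothalamic nuclei differed singly between the pools. Rax, a tanycyte factor, gave 96.7 in the control and 80.6 in the bezafibrate pool at ZT10, and 57.6 and 105 at ZT22. Six6 gave 91.1 and 58.7 at ZT10, and 107 and 104 at ZT22. Nr5a1, which defines the ventromedial nucleus, gave 165 and 135 at ZT10, and 203 and 215 at ZT22. In the authors' deposited table the 2 Cartpt probes had ratios of bezafibrate over control of 0.736 and 0.674 at ZT10 and of 0.837 and 0.942 at ZT22.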
